A study of Schizosaccharomyces pombe with 28 samples.

Results

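The genes described here encode 9 transcription factors of fission yeast, Schizosaccharomyces pombe, that act in stress and starvation: atf1, pcr1, atf21, atf31, pap1, prr1, scr1, rsv1 and rsv2. On the arrays they were found by name among the open reading frame (ORF) features and the intergenic (IGR) features, the latter after removal of the IGR prefix. This gave 17 regions of 9861, with 9 ORF features of 4898 and 8 IGR features of 4963. The gene rsv2 carries only its systematic name, SPBC1105.14, on the arrays and was matched through the RefSeq gene table. The IGR feature of atf1 is marked as missing and has no value. Among these genes rsv1 and atf21 were selected because their IGR H3K4me2 was raised in the swm1Δ arrays, so their H3K4me2 values are a description with no test. The other 7 were taken as related regulators. The 2 selected genes lie at chrII:2888450-2889979 (rsv1) and chrII:1723013-1724450 (atf21) in the RefSeq annotation of assembly ASM294v3.

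The study compared dimethylation of histone H3 at lysine 4 (H3K4me2) and at lysine 9 (H3K9me2) between cells in which the gene swm1 was deleted (swm1Δ) and wild-type (wt) cells. Chromatin of both strains was immunoprecipitated and co-hybridised to spotted arrays, with 2 arrays for each mark and region type. On other arrays the myc-tagged chromatin remodellers Hrp1 and Hrp3 were measured as immunoprecipitate against input, and total histone H3 was measured in cells lacking hrp1, with 3 arrays for each. Of the total H3 IGR arrays 1 is titled for Hrp1 alone, and was placed by its source name, which gives H3 in the hrp1 deletion. Each methylation array holds DNA of both strains, and the arrays C1 and C2 (H3K4me2) and B1 and B2 (H3K9me2) carry opposite dyes as read here. Growth medium, temperature and harvest are not given in the sources used here. The p-values cover only the spread between these arrays, moderated by limma over all features, so a gene's own SD has little weight. In H3K4me2 the scr1 and atf31 IGRs had SDs of 0.0029 and 0.23, but standard errors of 0.254 and 0.257. The study's methods state that the methylation arrays of a set came from independent chromatin immunoprecipitations, and do not say whether these came from separate cultures.

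Stress in fission yeast is relayed by a mitogen-activated protein kinase cascade that ends in the kinase Sty1. Its main nuclear effector is Atf1, a bZIP protein that binds DNA as a dimer with Pcr1, while Pap1, a relative of AP-1, and the response regulator Prr1 act on genes of the oxidative stress response. Glucose is sensed by the cAMP-dependent protein kinase, and the zinc-finger protein Scr1 represses genes such as fbp1 when glucose is plentiful. Methylation of H3K4 is laid down at transcribed genes by Set1, and methylation of H3K9 marks silent chromatin. Swm1 belongs to the LSD1 family of histone demethylases.

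The sequences before these genes are shown where they hold the elements that factors of this family bind, and were read from the same assembly, which may not be the build of the arrays. The window was 250 bases before the annotated gene start on the gene's strand. The cyclic AMP response element core, TGACGT on either strand, occurred there in 2 of the 9 genes, atf1 and rsv2, against 5.5% of 5112 protein-coding genes. Its longer form ATGACGT, which contains the core and so overlaps it, occurred in the same 2 genes, against 1.5%. In atf1 and rsv2 the 30 bases around it read as follows, with the bases matched on either strand in capitals, at chrII:1546153-1546182 and chrII:3532869-3532898, both on the plus strand.
atf1: aaagtgatgcaATGACGTCATctgtttgaa
rsv2: caatcagacgctTGACGTCATtctttatat
When the window was set to 1000 bases before the start codon, the core was also found before pcr1 and atf21, in 4 of 9 genes against 14.7% of all. In atf1 the match in this window is another site than that shown above, within its annotated 5′ UTR of 1444 bases. The sites with the core in capitals lie at chrI:4253179-4253208 on the minus strand (pcr1, within its annotated 5′ UTR) and chrII:1722146-1722175 on the plus strand (atf21).
pcr1: atTGACGTttctTGACGTcttgtcattctt
atf21: tttgttttgcagTGACGTCAaaattcatct
The stress starvation response element CCCCTC, read on both strands, occurred in the 250-base window of scr1 alone among the 9 genes, against 1.7% of all, and it occurred 3 times there. In the 1000 bases before the start codon it was found in 0 of the 9 genes, against 7.5% of all. For scr1 these 1000 bases do not reach the 250-base window, since its annotated 5′ UTR is 1496 bases. The 250-base window of scr1, chrII:1751843-1752092 on the plus strand, is shown with the 3 matches in capitals, since its IGR recurs in several results.
scr1: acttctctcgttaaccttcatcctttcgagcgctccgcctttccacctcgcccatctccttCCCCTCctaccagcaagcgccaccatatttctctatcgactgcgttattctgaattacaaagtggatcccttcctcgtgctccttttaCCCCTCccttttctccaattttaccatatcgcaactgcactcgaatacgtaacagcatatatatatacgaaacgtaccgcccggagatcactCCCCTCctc
No match to these motifs was found in either window of rsv1. The motif TTACTAA, a form of the element bound by Pap1, was found in neither strand of any of the 9 windows of 250 bases, against 10.7% of all genes, and in the 1000-base window of atf31 alone, against 32.8%. Matches of letters are a description and do not show a bound site.

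The deleted gene was checked first. At the swm1 ORF (SPBC146.09C) the H3K4me2 log2 ratio of swm1Δ over wt was -4.04 on C1 and -3.76 on C2, the lowest mean of all ORF features. On the arrays labelled H3K9me2 it was 0.03 on B1 and -1.43 on B2. On B1 both of its spots were dim, with a wt signal 4 units above background, so B1 gives no check of the deletion. The label of the ORF part of B1 names swm1Δ in the other dye than the label of its IGR part, and B1 is read here by the latter. Over all features the 2 arrays of a set correlated with Pearson r of 0.70 for H3K4me2 ORF and 0.43 for H3K4me2 IGR, but of 0.06 and 0.01 for H3K9me2 ORF and IGR.

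H3K4me2 was higher in swm1Δ in the coding regions of most of these factors. The ORF ratios of atf1, pcr1, pap1, scr1 and rsv2 passed the test, which is 5 of the 7 genes tested (limma, adjusted p under 0.05), and none was lower. Over all ORF features 16.4% passed as higher and 13.6% as lower. The median log2 ratio of the 7 genes was 0.71, against -0.02 for all ORF features. The study's methods instead call a feature when 3 or more of its spots reach a ratio of 2.0, and by this rule 2 of the 7 were higher, pcr1 and rsv2, against 3.31% of all features (2.1% were lower by the same rule).

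The rsv2 ORF had the largest ratio of these genes. The log2 ratio was 1.28 on C1 and 1.66 on C2, and all 4 spots were past 2.0. The mean was 1.47 ± 0.27 (SD, n = 2), a 2.77-fold difference (limma adjusted p = 0.000263), and it stood at position 29 from the top of 4898 ORF features. Rsv2 is a zinc-finger factor of the stress response, and its lowest spot was at 1.19 on the log2 scale. The pcr1 ORF, which encodes the bZIP partner of Atf1, had 1.31 on C1 and 1.39 on C2. The mean of 1.35 ± 0.052 (SD, n = 2), or 2.55-fold, stood at position 62 (limma adjusted p = 0.000391). Its 2 arrays differed less than those of any other ORF in this group.

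The remaining ORFs that passed differed by less than 2-fold. For atf1 the log2 ratio was 0.80 on C1 and 0.63 on C2 (mean 0.71 ± 0.12 SD, n = 2, limma adjusted p = 0.0225). For scr1, the glucose repressor, it was 0.88 and 0.56 (mean 0.72 ± 0.23 SD, n = 2, limma adjusted p = 0.0223). For pap1 it was 0.56 and 0.72 (mean 0.64 ± 0.11 SD, n = 2, limma adjusted p = 0.0382), and this call was lost without background subtraction. In all 3 genes both arrays were above 0 and every spot lay between 0.50 and 0.93. The prr1 ORF had 0.37 and 0.69, with a mean of 0.53 ± 0.23 (SD, n = 2) that did not pass (limma adjusted p = 0.0821) and did pass with median centring. The atf31 ORF, for an ATF-family bZIP protein, had -0.01 and 0.41, a mean within the spread of its arrays (limma adjusted p = 0.533). Of the 2 genes selected on H3K4me2, rsv1 had ORF ratios of 1.24 and 0.60 and atf21 had 0.32 and 0.01. The ORF of rsv1 was thus above 0 on both arrays, while that of atf21 was close to 0 on C2.

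**Figure D1:**
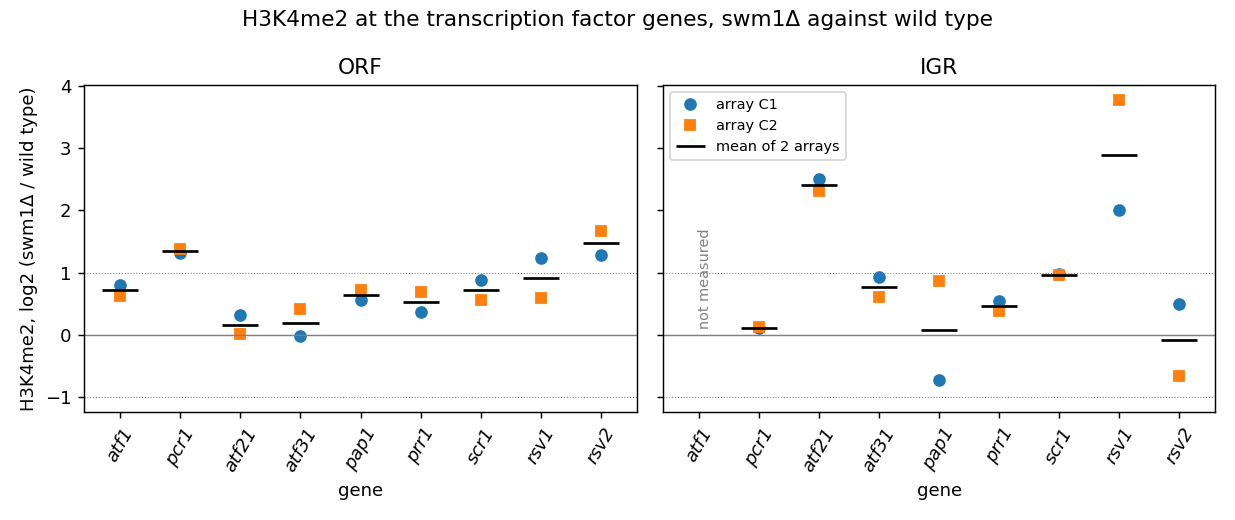
H3K4me2 log2 ratio of swm1Δ over wt (y axis) for the ORF and IGR feature of each gene (x axis), with 1 point per array and a bar at the mean of the 2 arrays; dotted lines mark a 2.0-fold difference. In the ORF panel pcr1 and rsv2 are past 2.0 on both arrays, and in the IGR panel rsv1 and atf21 are, with rsv1 at 2.00 on C1 and 3.77 on C2.

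In the intergenic regions the IGR of scr1 alone passed the test as higher, 1 of the 6 genes tested, against 4.03% of all IGR features (1.51% passed as lower). None of the 6 met the 2.0-fold rule, against 1.95% of all IGR features as higher and 0.463% as lower. The median of the 6 was 0.29, against -0.0047 for all IGR features, and it was 0.494 without C1 and 0.52 without C2. For IGR features C1 gives 1 spot and C2 gives 2, so each has 3 data points. The rule therefore asked for all 3 here, which is stricter than the 3 of 4 asked for ORFs and in the study's methods.

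The 2 genes selected on this readout stood at the top of the IGR features. For rsv1, a zinc-finger factor needed for survival in stationary phase, the log2 ratio was 2.00 on C1 and 3.77 on C2, a mean of 2.89 ± 1.25 (SD, n = 2) at position 1 of 4963. The signal above background of its spots was 8953 (swm1Δ) and 8939 (wt) on C1, and 34277 and 1196 on C2, before normalization for the dyes. The arrays differed in size, 3.995-fold on C1 and 13.7-fold on C2, although both were far above 0. For atf21, an ATF-family bZIP gene, the log2 ratio was 2.49 on C1 and 2.31 on C2, a mean of 2.40 ± 0.13 (SD, n = 2) at position 3. Its signals were 11507 (swm1Δ) and 8292 (wt) on C1, and 19043 and 1659 on C2. These values chose the 2 genes and support nothing by themselves.

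The scr1 IGR gave 0.97 on both arrays, a mean of 0.97 ± 0.0029 (SD, n = 2) or 1.96-fold (limma adjusted p = 0.0295). It was not past the threshold with the ratios the authors deposited, where the mean was 0.81. The atf31 IGR had 0.93 and 0.61 (mean 0.77 ± 0.23 SD, n = 2) and did not pass (limma adjusted p = 0.0993). The prr1 IGR had 0.55 and 0.38 and the pcr1 IGR had 0.11 and 0.12, both above 0 on each array but not past the threshold. For pcr1 the ORF and the IGR stood far apart, at 1.35 and 0.11. The pap1 IGR had -0.72 on C1 and 0.86 on C2, and the rsv2 IGR had 0.49 and -0.67. For these 2 genes the arrays lay on opposite sides of 0 in the IGR, whereas both of their ORFs passed the test. The ORF ratio was above the IGR ratio in pcr1, pap1, prr1 and rsv2, and below it in atf21, atf31, scr1 and rsv1. The difference between the region types was not tested.

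Of the features of the 3 genes on either side of each of the 9 genes, 6 of 48 ORFs (12.5%) and 3 of 49 IGRs (6.12%) passed as higher, near the 16.4% and 4.03% of all ORF and IGR features. Around rsv1, 6 IGR features of the 3 genes on either side were measured, and they ranged from -0.22 to 1.10 on the log2 scale. The highest was the IGR named for qcr10, which encodes a subunit of the respiratory complex III, with 1.38 on C1 and 0.82 on C2 (limma adjusted p = 0.0155). The IGR named for rbd3, on the other side, had 0.59 and 0.86 and did not pass (limma adjusted p = 0.127). The ORF of rbd3 itself was lower in swm1Δ, with -1.31 and -0.84 (limma adjusted p = 0.00233). Around atf21, 5 IGR features ranged from -0.63 to 0.98, and only that named for mrpl35, a mitochondrial ribosomal protein gene, passed as higher, with 0.89 and 1.07 (limma adjusted p = 0.0275). Which side of a gene its IGR feature covers is not given in the sources used here. Among ORFs, none of the 5 measured neighbours of rsv2 passed as higher, and the highest of them was 0.14 against 1.47 for rsv2. Of the 5 around pcr1 1 passed as higher, at 0.96 against 1.35 for pcr1. The ORFs of atf1, atf31, scr1 and rsv1 also lay above all their measured neighbours, rsv1 by the least (0.92 against 0.91), and those of atf21, pap1 and prr1 did not. The difference from neighbours was not tested.

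**Figure D2:**
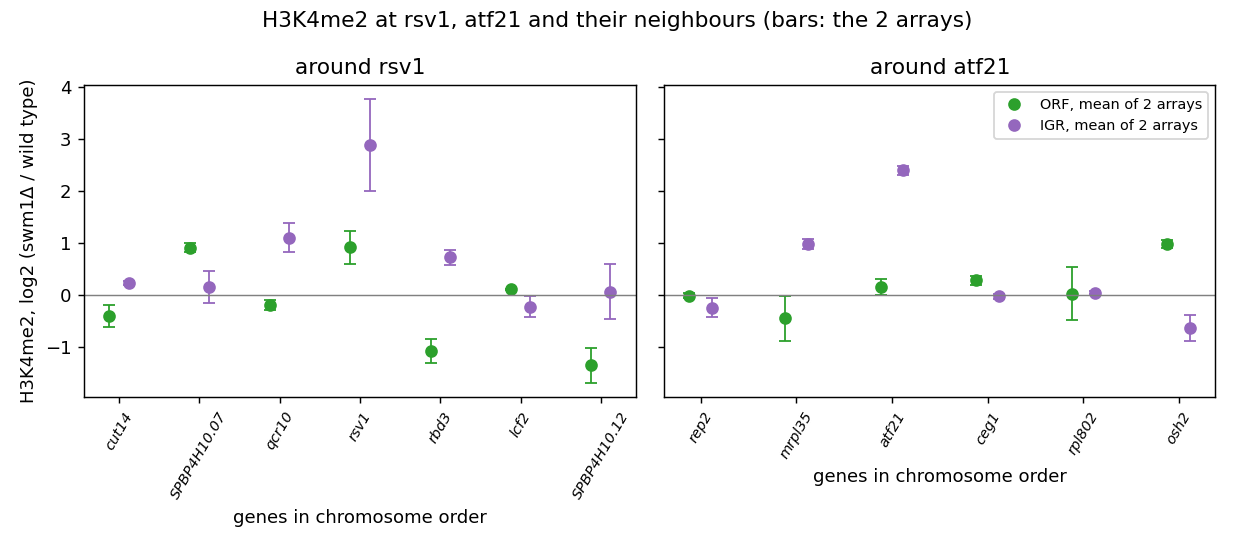
H3K4me2 log2 ratio of swm1Δ over wt (y axis) for the ORF and IGR features of rsv1 and atf21 and of up to 3 genes on either side, in chromosome order (x axis); points are means of 2 arrays and bars join the 2 arrays. The IGR of rsv1 at 2.89 and that of atf21 at 2.40 stand above all their measured neighbours, the next being qcr10 at 1.10 and mrpl35 at 0.98. Both genes were selected for raised values on this readout, so their place above the neighbours is largely fixed by that choice.

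The distance to the next coding region upstream was large for several of these genes in the RefSeq annotation. It was 6162 bases for scr1, 3662 for rsv1, 3607 for prr1, 2894 for atf1 and 2535 for atf21, against a median of 880 over 5107 genes. These 5 lay at or above percentile 92.4 of all genes. It was shorter for atf31, with 581 bases, and for rsv2, with 742.

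H3K9me2 gave no call in any of these genes. By limma none of the 9 ORFs and none of the 8 IGRs passed, nor did any feature at all (0% in each direction for both region types). At an unadjusted p under 0.05, 196 of 4898 ORF features and 300 of 4901 IGR features passed, and among the 17 regions only the atf31 ORF did. None of the 17 met the 2.0-fold rule. Of all ORF features 3.61% met it as higher and 3.78% as lower, and of all IGR features 2.35% and 3%. On these arrays 2 of the 9 ORFs and 1 of the 8 IGRs were above 0 on both arrays, and 4 and 6 had arrays of opposite sign.

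The widest ORF values came from B1. Read by its own label, B1 turns the sign of the mean in 8 of the 9 ORFs, all but rsv2, so the directions given here rest on the reading used. The ratios the authors deposited for the ORF part of B1 ran the same way as the reading used here (Spearman correlation 0.878 over features). For atf31 the log2 ratio was -4.24 on B1 and -0.59 on B2, with a signal above background on B1 of 1543 in swm1Δ and 10840 in wt. For prr1 it was 3.51 on B1 and 0.58 on B2, and its wt signal on B1 was only 15.8 units above background. For atf1 it was 1.24 and 0.76, with a wt signal on B1 of 1 unit above background in spots that were both dim. With these dim spots left out the atf1 value was that of B2 alone. The rsv1 ORF had -1.66 and -0.16 and the pcr1 ORF -1.30 and -0.12, lower on both arrays, while scr1 and atf21 changed sign between the arrays. In the IGR, rsv1 had 0.75 and 0.68, the only one of the 8 above 0 on both arrays, with a mean of 0.71 ± 0.049 (SD, n = 2) that did not pass (limma adjusted p = 0.999). The atf21 IGR had 1.47 on B1 and -0.06 on B2.

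**Figure D3:**
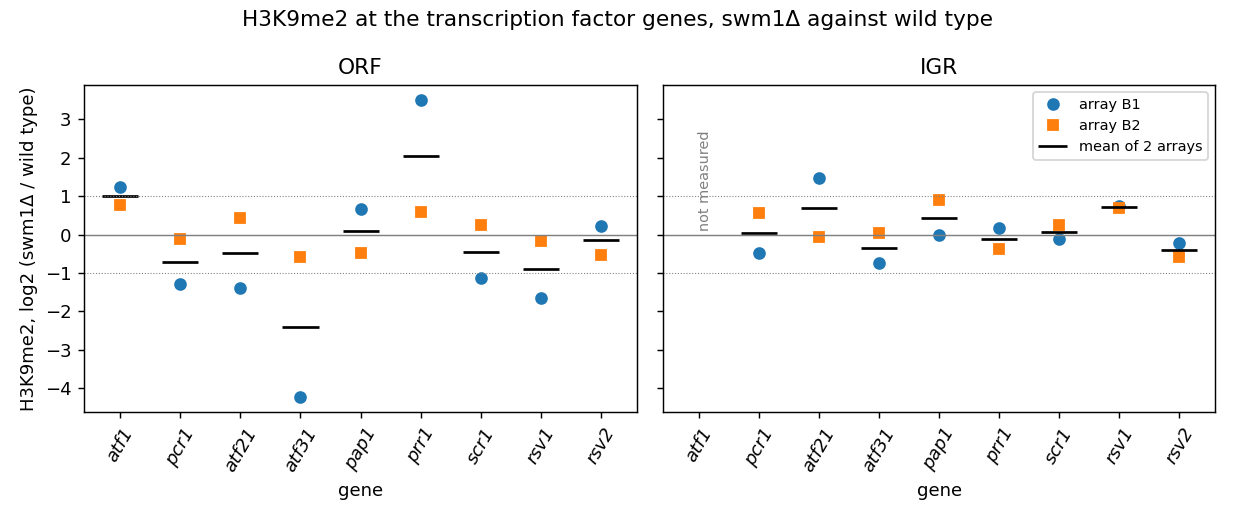
H3K9me2 log2 ratio of swm1Δ over wt (y axis) for the ORF and IGR feature of each gene (x axis), with 1 point per array and a bar at the mean; dotted lines mark a 2.0-fold difference. The arrays lie apart, as for prr1 at 3.51 and 0.58 and atf31 at -4.24 and -0.59 in the ORF panel.

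Binding of Hrp1 and Hrp3, remodellers of the CHD1 family, was read as the percentile rank of each feature within an array, where 1 is the highest ratio of immunoprecipitate over input. No array of an untagged strain was used, so a rank is not a test of binding. In each set 1 array stood apart from the other 2, with Pearson r between -0.13 and -0.29 to them, whereas the other 2 correlated with r between 0.56 and 0.76. These were slide2 of the Hrp1 ORF set, slide1 of the Hrp1 IGR set, slide1 of the Hrp3 ORF set and the K080D array without a slide number of the Hrp3 IGR set. Thresholds of 0.90 for Hrp1, and of 0.92 and 0.94 for Hrp3 in ORF and IGR, were set on the mean rank, whereas the study's methods name a median percentile. No region of the 17 reached them by the mean rank over the 3 arrays. Of all features 0.939% and 0.786% did for Hrp1 in ORF and IGR, and 0.47% and 0.121% for Hrp3. By the median rank over the 3 arrays, 1 ORF (prr1, 0.902) and 2 IGRs (scr1, 0.993, and prr1, 0.904) did for Hrp1, against 4.33% and 4.84% of all. For Hrp3 2 ORFs (pcr1, 0.954, and rsv2, 0.98) and 1 IGR (scr1, 0.982) did by the median, against 4.92% and 3.2%.

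The values the authors deposited for these arrays are of 1 dye over the array median and are not divided by input. By their mean rank the scr1 ORF reached the threshold for both proteins (0.966 and 0.936), against 4.19% of ORFs for Hrp1 and 3.56% for Hrp3. For Hrp1 4 IGRs did, scr1 (0.994), rsv1 (0.976), pcr1 (0.96) and atf21 (0.933), against 7.07% of all. For Hrp3 4 IGRs did, scr1 (0.995), rsv1 (0.992), pcr1 (0.963) and pap1 (0.944), against 3.23% of all. Both genes selected on H3K4me2 were thus past the Hrp1 threshold with these values, and rsv1 past that of Hrp3. Their IGR spots were bright, with a summed signal on the Hrp1 arrays between percentiles 95.0 and 98.8 for rsv1 and 90.8 and 93.8 for atf21. By the ratio over input their mean Hrp1 ranks were 0.249 and 0.688, and the mean Hrp3 rank of rsv1 was 0.646. How far the deposited values follow brightness was not tested.

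Without the array that stood apart, the scr1 IGR ranked among the highest for both proteins. Its Hrp1 rank was 0.998 on A260E and 0.993 on slide2, and 0.0030 on slide1. Its Hrp3 rank was 0.997 on slide2 and 0.982 on slide3, and 0.0024 on the array that stood apart. The same region was thus at the top of 2 arrays and at the bottom of the third in each set. Its spots were among the brightest on 9 arrays, with a summed signal between percentile 97.4 and 99.6, and the part of brightness in these ranks was not tested. The prr1 IGR ranked 0.904, 0.685 and 0.933 for Hrp1 and 0.717, 0.795 and 0.812 for Hrp3. Its mean rank was 0.841 and 0.775 for the 2 proteins, and 0.717 and 0.630 with the array that stood apart turned. The prr1 ORF ranked 0.842, 0.933 and 0.902 for Hrp1, a mean of 0.892, where the second value is from the array that stood apart. With that array turned the mean was 0.603.

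In the counts without that array, 2 of the 8 IGRs (scr1 and prr1) reached the Hrp1 threshold against 6.11% of all, and 1 (scr1) the Hrp3 threshold against 4.23%. Among the 9 ORFs 1 did for Hrp1 (pcr1, mean 0.908) against 5.02%, and 2 for Hrp3 (pcr1 and rsv2, means 0.975 and 0.988) against 6.49%. The ORFs of pcr1 and rsv2 are also those past 2.0-fold in H3K4me2. How often the 2 readings coincide over all ORFs was not tested here. The paper reports an overlap of ORFs with raised H3K4me2 and ORFs bound by Hrp3 across the genome. With the sign of the array that stood apart turned, 1 IGR (scr1) reached each threshold and no ORF did. By the ratio over input the IGRs of the 2 genes selected on H3K4me2 reached no threshold by mean or median rank. The rsv1 IGR ranked 0.538, 0.101 and 0.108 for Hrp1 and 0.302, 0.833 and 0.802 for Hrp3. The atf21 IGR ranked 0.901, 0.489 and 0.673 for Hrp1 and 0.322, 0.576 and 0.413 for Hrp3.

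In total H3 of hrp1Δ cells several of these IGRs ranked high on every array. On the 3 arrays, whose pairwise Pearson r was between 0.63 and 0.83, the rank of the deposited log2 ratio was at least 0.90 on every array for 4 of the 8 IGRs (scr1, rsv1, pcr1 and atf21), against 4.01% of all IGRs. The scr1 IGR ranked 0.998, 0.994 and 0.995, and the rsv1 IGR 0.985, 0.978 and 0.979. The atf21 IGR ranked 0.971, 0.945 and 0.912 and the pcr1 IGR 0.968, 0.959 and 0.976. At the low end, the atf31 IGR ranked 0.057, 0.250 and 0.517. Among the ORFs 1 of 9 (scr1, with 0.971, 0.939 and 0.987) was at least 0.90 on every array, against 1.77% of all ORFs. The files do not state which way this ratio runs, so a high rank may stand for more or for less H3, and no wild-type array of total H3 was used. The spots of the rsv1, pcr1 and atf21 IGRs had a median brightness percentile of 98.2, 92.4 and 90.8 on the other arrays, and the part of brightness in these ranks was not tested.

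**Figure D4:**
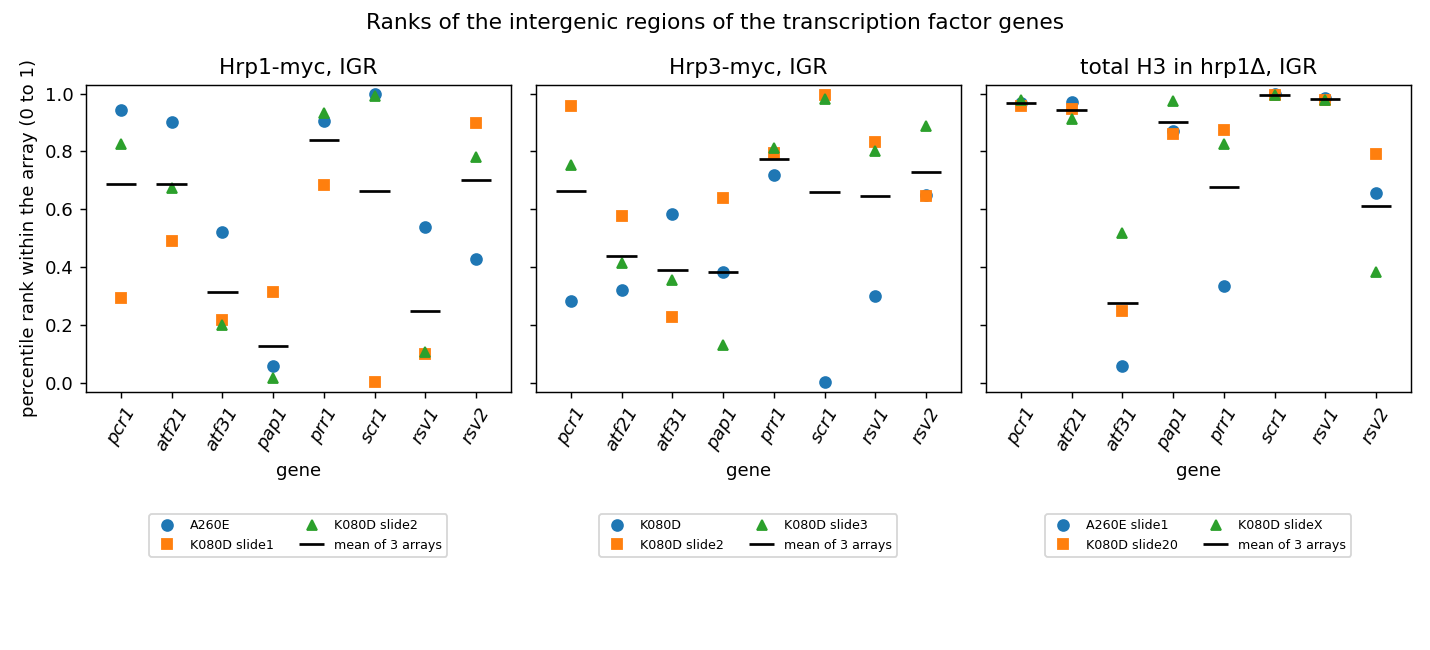
Percentile rank within each array (y axis, 1 is the highest) of the 8 measured IGRs (x axis) for Hrp1-myc, Hrp3-myc and total H3 in hrp1Δ cells, with 1 point per array and a bar at the mean of 3 arrays. For total H3 the arrays of scr1, rsv1, pcr1 and atf21 all lie above 0.90, and for Hrp1 and Hrp3 scr1 lies near 1 on 2 arrays and near 0 on the third.

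For the signalling pathways behind these factors ORF H3K4me2 was read over lists of their genes. Of 12 measured components of the Sty1 cascade 7 passed as higher and 1 as lower (limma), against 16.4% and 13.6% of all ORFs, with a median log2 ratio of 0.70 against -0.02 for all ORFs. The lower gene was sty1 itself, with a mean log2 ratio of -0.69 (limma adjusted p = 0.0276). Of 11 measured genes of the cAMP pathway, out of 13, 7 passed as higher and none as lower, with a median of 0.68. Of 24 other transcription regulators measured, out of 25, 9 passed as higher and 1 as lower, with a median of 0.42. Of 15 measured target genes of Atf1, Pap1 and Scr1, out of 16, 3 passed as higher and 4 as lower. The shares of all ORFs were 16.4% and 13.6%, and the median of the targets was -0.22 against -0.02 for all ORFs. By the 2.0-fold rule 0, 1, 1 and 0 of the 4 lists were higher and 0, 0, 0 and 1 lower, against 3.31% and 2.1% of all ORFs. The order is Sty1, cAMP, regulators and targets.

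Named by size, srk1, a kinase activated by Sty1, had ORF log2 ratios of 1.62 and 0.82 (limma adjusted p = 0.0013). The glucose receptor gene git3 had 1.08 and 1.38 (limma adjusted p = 0.000737), with all 4 spots past 2.0. The phosphate regulator pho7 had 1.85 and 1.30 (limma adjusted p = 0.000186). The heat-shock gene hsp9 was lower, with -1.23 and -0.98 (limma adjusted p = 0.00163). In the IGR the genes that passed as higher were 1 of 11, 1 of 10, 3 of 13 and 2 of 24 in the Sty1, cAMP, target and regulator lists, against 4.03% of all IGRs. Among them klf1 alone was lower, with -0.70 and -2.15 (limma adjusted p = 0.00743), against 1.51% of all IGRs. The largest higher values were those of cta3, a cation ATPase gene induced by stress, with 1.72 and 2.86 (limma adjusted p = 6.26e-05), and zfs1, a zinc-finger gene of the mating response, with 1.71 and 2.54 (limma adjusted p = 7.73e-05).

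Likeness of pattern was read over ranks that include the H3K4me2 arrays on which rsv1 and atf21 were selected, so raised H3K4me2 among the nearest IGRs is partly fixed by that choice. The IGRs closest to that of rsv1 in their ranks over 10 IGR arrays (both marks and both Hrp proteins) were those of rhp42, SPBC428.15 and pmc1. The mean absolute difference of ranks was 0.070, 0.118 and 0.118, against a median of 0.372 over 4900 features. For atf21 they were mfm3, which encodes a mating pheromone precursor, lac1 and set1, with 0.058, 0.0996 and 0.109 against a median of 0.343. The H3K4me2 ratio of the mfm3 IGR was 2.48 on C1 and 0.68 on C2, and that of set1 was 0.54 and 0.66.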

How the data were processed

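The intensities deposited by the authors are medians over the pixels of a spot and of its local background, for both dyes. For methylation and total H3 the authors deposited log2 ratios after Lowess normalization, and for the Hrp arrays log10 values of 1 dye over the array median. Their genome build is not given in the sources used here. Scanner intensities were background corrected (normexp, offset 50, limma 3.58.1 in R 4.3.3), and loess was applied to the methylation ratios of each scan, where controls and missing features had no weight. Hrp ratios were only ranked within an array. The ORF part of B1 was read against its own dye label. For H3K9me2 IGR, where no scanner file of B1 was used, deposited ratios centred on each array's median were taken. The 2 spots of an array were averaged. The 2 arrays were tested against 0 with limma, with 1 residual degree of freedom and variances moderated over all features. Benjamini-Hochberg adjustment was over all features of the region type, with a threshold of 0.05. The limma step was run on simulated data with 1 common spread for all features and log2 differences of 2. That setting does not measure its error rate on these arrays. Ranks used Python 3.11.15 and pandas 2.3.3. The number of arrays limits the precision.

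The members and gene lists were chosen with earlier results of these data known. Named besides the 9 genes are swm1 and, for each list and contrast, at most 3 genes past the threshold or the rule by absolute log2 ratio, of which the largest are given, and the 3 IGRs nearest to those of rsv1 and atf21. The gene sty1 is named in addition, as the lower gene of its list. The neighbouring genes were chosen by position. The expression table was not used, since its rows could not be paired with genes here. Alternatives were median centring, no background subtraction, deposited values, dim spots left out, a cut-off of 1.5, median ranks, the label of B1 and leaving out each array. Turning the sign of the Hrp array that stood apart was chosen after seeing the data.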

Additional observations from a re-analysis of the deposited data

How the results depend on the processing

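No paired analysis was possible because each methylation array holds both strains, other than the pairing that its ratio already makes. Testing this ratio against 0 compares the strains within each array, so no separate pairing of arrays remained. With 1 array left no spread remains, so limma counts have no value without an array. For H3K4me2 ORF the median of the 7 genes was 0.791 with median centring and ranged from 0.691 to 0.798 when an array was left out, and 5 genes met the rule at a cut-off of 1.5. Single calls changed for prr1 (0.683, passing with median centring) and pap1 (0.642, not passing without background subtraction). For H3K4me2 IGR the median of the 6 genes was 0.251 without background subtraction, and 0.494 to 0.52 when an array was left out, since pap1 and rsv2 have arrays of opposite sign. With deposited ratios 131 features passed instead of 275, 0 of the 6 genes passed and 1 met the rule, as 1 did with median centring and 1 at a cut-off of 1.5. The scr1 IGR was 0.814 there and between 0.814 and 1.132 over the alternatives run.

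For H3K9me2 ORF 3 features passed with deposited ratios. With B1 read by its own label the median was 0.59 and the sign turned for atf1 (-0.241), pcr1 (0.59), atf21 (0.913), atf31 (1.822), pap1 (-0.572), prr1 (-1.462), scr1 (0.691) and rsv1 (0.749), while rsv2 kept its sign. The sign also turned for pap1 with median centring (-0.089) and for rsv2 without background subtraction (0.025). At a cut-off of 1.5 the rule was met as higher by 2 ORFs and 1 IGR. Between 0 and 2 ORFs and 0 and 1 IGR met it as higher when an array was left out (the larger counts without B2). With an array left out only 2 spots remained, so the rule of 3 spots could not be applied as stated. Values past the rule as lower are not in these counts. On B1 both spots of the pcr1, atf21, atf31, scr1 and rsv1 ORFs were past 2.0-fold as lower. For H3K9me2 IGR the median was 0.259 without centring, where prr1 was 0.102.

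Of the Hrp counts, the 0 ORFs for Hrp1 became 1 with the median rank and 1 with deposited values, and 0 to 1 when an array was left out (1 without A260E, prr1, and 1 without slide2, pcr1). The Hrp1 IGR count became 2 with the median rank, 4 with deposited values, 0 to 2 without an array (2 without slide1) and 1 with the sign of slide1 turned. The Hrp3 ORF count became 2, 1 and 0 to 2 (2 without slide1) under the first 3 of these. The Hrp3 IGR count became 1, 4, 0 to 1 (1 without the K080D array with no slide number) and 1 with that array turned. The causes were not tested. Over all alternatives run, 392 values for single genes stayed within the spread or kept their call, and 21 moved by more. Calls were lost for 2 and gained for 1. Another 11 turned sign in alternatives that kept both arrays. Sign changes on leaving out an array are not among these 11 and are counted as within the spread. For example, the H3K4me2 IGR mean of pap1 went from 0.072 to -0.716 without C2, and that of rsv2 from -0.087 to 0.493. On B1 both spots of atf1 were dim, and without them its H3K9me2 ORF value was 0.759.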

Other observations

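In H3K9me2 no gene of the 4 lists passed limma, and the 2.0-fold rule was met by 3.61% of all ORFs as higher and 3.78% as lower, and by 2.35% and 3% of all IGRs. By the 2.0-fold rule the fbp1 ORF, for the gluconeogenic enzyme repressed by Scr1, was higher, with log2 ratios of 3.78 on B1 and 1.92 on B2, and the gpd1 ORF, for glycerol synthesis, was lower, with -2.03 and -1.80 (both limma adjusted p = 0.93). The klf1 ORF had 2.49 and 2.07, and the zip1 ORF, for a bZIP factor, had 1.31 and 1.13. These ORF directions rest on the reading of B1. Read by its own label, the means were -0.93 for fbp1, 0.12 for gpd1, -0.21 for klf1 and -0.09 for zip1, and none of the 4 met the rule. In the IGR the feature named for mak1, a histidine kinase gene upstream of Sty1, had 5.65 and 1.91, the inv1 feature, for invertase, 1.65 and 1.43, and the zfs1 feature 5.99 and 1.01. The IGR of mak3, another histidine kinase gene, was lower, with -3.82 and -1.51. The inv1 IGR was also higher in H3K4me2, with 2.04 on C1 and 0.70 on C2 (limma adjusted p = 0.00847).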
